A study of Mus musculus with 20 samples.

Results

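Cultured Mvt1 cells with a short hairpin RNA against Rnaseh2c were compared with the same cell line carrying a scramble hairpin. The members were the 6 cell libraries among the 20 samples of the series, 3 from the knockdown line sh4 and 3 from the scramble line, and each library came from a numbered culture plate. The series also holds 6 primary tumors and 8 lung metastasis exomes. Mvt1 is a mouse mammary carcinoma line of FVB background, derived from a tumor driven by mammary tumor virus promoter transgenes for Myc and Vegf. Both lines were labeled wild type, had been transduced with an shRNA vector and were grown under 10 µg/mL puromycin, so selection and vector were shared by the groups. Each group was 1 transduced line, so the hairpin and the history of the line cannot be told apart, and p-values measured only the spread between plates of a line. Total RNA was sequenced, and expression was deposited as FPKM, fragments per kilobase of transcript scaled to the number of mapped fragments. Only rows with an Ensembl gene identifier were used, 50667 of 290541, and the rows of loci assembled by the pipeline were left out.

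RNase H2 is a nuclear enzyme of 3 subunits, with RNASEH2A as the catalytic subunit and RNASEH2B and RNASEH2C as scaffolds. It removes ribonucleotides that polymerases place in DNA and cuts the RNA strand of RNA-DNA hybrids. Inherited loss of its function causes Aicardi-Goutières syndrome, in which self nucleic acid is sensed as foreign and type I interferon-stimulated genes are chronically switched on. The comparison therefore asked which genes move when the scaffold subunit is targeted in tumor cells, with the interferon response, DNA damage and growth genes as natural places to look.

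Promoters are shown here for genes of 2 responses with well known DNA elements near their start sites, zinc and interferon, whose expression results are given further on. Metallothionein genes are switched on by the zinc-sensing factor MTF1 through metal response elements, whose core was searched as TGCACNC or TGCGCNC. Interferon-stimulated genes carry the interferon-stimulated response element, searched as GAAA, any 2 bases and GAAA again. Both strands were searched in the 250 bases before each start in the RefSeq promoters of GRCm38.p6. The capitals mark the matches, each sequence is written 5′ to 3′ on the strand of the gene, and a match is a description of letters and not a measured site. Mt1 lies at chr8:94178839-94179088 on the + strand, Mt2 at chr8:94172368-94172617 on the + strand and Slc30a1 at chr1:191906531-191906780 on the + strand.
Mt1: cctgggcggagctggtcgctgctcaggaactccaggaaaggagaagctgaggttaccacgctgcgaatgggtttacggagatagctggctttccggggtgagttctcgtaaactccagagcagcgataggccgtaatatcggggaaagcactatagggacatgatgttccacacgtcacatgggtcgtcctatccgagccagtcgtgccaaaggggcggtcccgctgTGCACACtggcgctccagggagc
Mt2: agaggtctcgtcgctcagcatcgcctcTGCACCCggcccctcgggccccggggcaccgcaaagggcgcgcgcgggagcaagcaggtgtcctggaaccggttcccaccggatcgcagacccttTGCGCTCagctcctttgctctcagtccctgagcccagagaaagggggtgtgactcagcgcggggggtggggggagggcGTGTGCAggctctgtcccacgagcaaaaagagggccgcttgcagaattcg
Slc30a1: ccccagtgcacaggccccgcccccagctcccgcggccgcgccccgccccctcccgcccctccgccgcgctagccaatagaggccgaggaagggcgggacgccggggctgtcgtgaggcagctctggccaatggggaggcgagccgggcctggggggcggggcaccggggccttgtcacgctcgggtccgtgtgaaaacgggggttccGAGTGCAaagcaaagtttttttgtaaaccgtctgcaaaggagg
The metal response core was found once in the Mt1 window, 3 times in that of Mt2 and once in that of Slc30a1. Bases outside these windows were not searched, so the counts are not totals for a promoter. It is a short and common string, present in 21.4% of all 32851 promoters and in 29.4% of the 10881 promoters of protein-coding genes tested. It was present in 33.3% of 57 promoters of genes called higher and in 26.0% of 123 promoters of genes called lower.

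The interferon element is shown for Ifit1 and Rsad2, which were higher in sh4 cells, and for Gbp2, which was lower. Ifit1 lies at chr19:34640639-34640888 on the + strand, Rsad2 at chr12:26456453-26456702 on the - strand and Gbp2 at chr3:142620413-142620662 on the + strand.
Ifit1: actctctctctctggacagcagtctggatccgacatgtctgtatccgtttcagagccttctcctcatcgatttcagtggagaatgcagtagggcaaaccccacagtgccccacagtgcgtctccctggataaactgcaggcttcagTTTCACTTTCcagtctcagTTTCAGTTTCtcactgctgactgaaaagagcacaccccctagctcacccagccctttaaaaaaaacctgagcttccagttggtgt
Rsad2: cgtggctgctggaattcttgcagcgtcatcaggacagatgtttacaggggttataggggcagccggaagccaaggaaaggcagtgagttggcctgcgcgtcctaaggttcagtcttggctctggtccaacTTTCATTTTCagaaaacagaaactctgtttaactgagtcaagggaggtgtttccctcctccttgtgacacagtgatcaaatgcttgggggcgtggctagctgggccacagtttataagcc
Gbp2: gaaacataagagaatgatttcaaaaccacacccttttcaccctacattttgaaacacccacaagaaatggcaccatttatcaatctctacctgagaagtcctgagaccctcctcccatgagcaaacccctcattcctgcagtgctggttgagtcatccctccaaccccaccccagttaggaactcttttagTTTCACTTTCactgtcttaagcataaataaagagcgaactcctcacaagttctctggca
The interferon element stood at 2 places in the window of Ifit1 and once in those of Rsad2 and Gbp2, so genes that moved in opposite directions both held it. It was present in 2.98% of all promoters, in 2.62% of those of protein-coding genes tested, in 3.51% of the promoters of genes called higher and in 4.07% of those of genes called lower.

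The libraries were first checked against their label. Myc, the driver transgene of the line, was listed at 121 to 155 FPKM, and the simple-epithelium keratins Krt8 and Krt18 stood at 269 to 349 and 165 to 217 FPKM. Vim, a mesenchymal intermediate filament, was also high at 361 to 610 FPKM. The defining epithelial adhesion genes Cdh1 and Epcam were at or near 0 in all 6 libraries, with a highest value of 0.018 FPKM for Cdh1 and 0.0228 for Epcam, and the basal keratins Krt5 and Krt14 were likewise at or near 0. The expression pattern was therefore one of keratin 8 and 18 with vimentin, without Cdh1 and Epcam. Of 35 epithelial genes listed 18 had a mean of at least 0.1 FPKM. Junctional genes were not all absent, since Perp, a desmosomal membrane protein, was well expressed, as given further on. Many markers of other cells were low or at 0. Cd3e and Emr1 were at 0 throughout, Ptprc reached 0.0143 FPKM in 1 library, and Kdr, Dcn and Adipoq did not exceed 0.0403 FPKM. Of the markers listed, 2 of 10 endothelial and 1 of 11 fibroblast genes had a mean of at least 0.1 FPKM. The endothelial markers summed to 2.02 to 2.19 FPKM in scramble and 1.99 to 2.24 FPKM in sh4 cells. The fibroblast markers summed to 0.382 to 0.504 FPKM and 0.409 to 0.412 FPKM. Cd68 was present at 11.2 to 15 FPKM and Csf1r at 1.09 to 1.53 FPKM. Several of these marker genes were picked after their values were seen.

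The FPKM of Ensembl genes summed to 659082 to 864566 per library, the 10 highest genes took 58.8% to 65.1% of that sum, and protein-coding genes took 19.9% to 23.1%. Sequencing depth is unknown, so no counting interval can be given. The first principal component of protein-coding genes, 45.4% of the variance, separated the sh4 from the scramble libraries. The second, 23.3%, set scramble plate 1 apart, which also had the smallest protein-coding sum, and values without that plate are given below for the number of calls and for the lists whose counts moved most.

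Rnaseh2c, the targeted gene, was lower in sh4 cells on average without passing the test. It was listed at 5.83, 7.06 and 5.34 FPKM in the scramble plates and at 3.19, 5.36 and 4.28 FPKM in the sh4 plates. The groups overlapped by 1 value, since sh4 plate 2 lay just above scramble plate 3. The sh4 mean was 70.3% of the scramble mean (4.27 ± 1.09 against 6.08 ± 0.885 FPKM, SD, n = 3 each). The log2 fold change was -0.48 (SE 0.18), with a limma adjusted p of 0.236 and an unadjusted p of 0.0372, and the exact two-sided permutation p was 0.2, where 3 plates against 3 cannot go below 0.1. Total RNA reads counted over the gene were the readout here, and these libraries hold no measure of protein. The paper checked the knockdown by qRT-PCR and chose the sh4 line by western blot.

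None of the other RNase H genes passed the test. Rnaseh2a, the catalytic subunit, ranged from 4.50 to 5.31 FPKM in scramble and from 4.96 to 5.60 FPKM in sh4 cells, and the ranges overlapped. Rnaseh2b, the other scaffold, was far lower at 0.534, 0.418 and 0.481 FPKM in scramble and 0.610, 0.548 and 0.610 FPKM in sh4 cells. Its groups did not overlap, but the adjusted p was 0.35. Rnaseh1, the single-subunit enzyme that also cuts RNA-DNA hybrids, differed by 0.026 on the log2 scale with overlapping groups. Of the 9 genes on the list of RNase H and Aicardi-Goutières genes, 0 passed the limma test in either direction at an adjusted p under 0.05, 1 had an unadjusted p under 0.05 on the positive and 2 on the negative side (9.55% and 9.33% of all genes tested), and the median log2 fold change was 0.026. The lowest members were Rnaseh2c and Trex1, a nuclease that degrades cytosolic DNA, whose log2 fold change was -0.27 (adjusted p 0.216). Of 26 genes that resolve R-loops, 1 was called higher, the nucleolar helicase Ddx21, and 0 lower, with a median of 0.095.

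**Figure D1:**
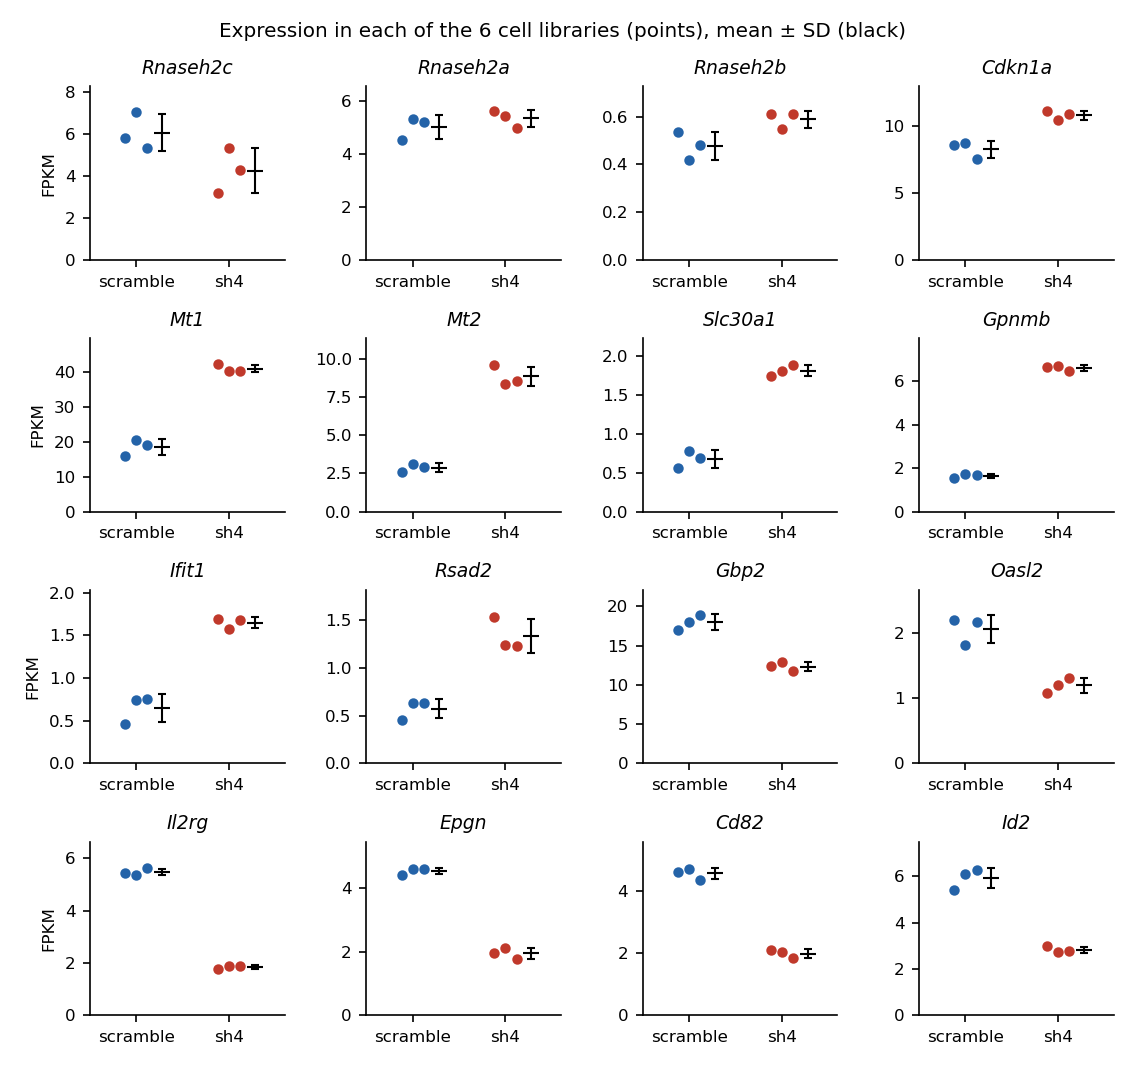
Expression in FPKM of 16 genes in each cell library, with scramble plates in blue, sh4 plates in red and the mean with SD of 3 plates in black on linear axes from 0. Rnaseh2c overlapped between the groups, while Mt1, Mt2, Slc30a1 and Gpnmb were 2.20 to 3.97 times as high in sh4 as in scramble cells and Il2rg, Epgn, Cd82 and Id2 were lower in all 3 sh4 plates.

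Across the transcriptome 270 of 21106 genes tested were called, that is, had an adjusted p under 0.05 in limma on log2(FPKM + 0.5), or 1.28% of those tested. Of these 110 (0.521%) were higher and 160 (0.758%) lower in sh4 cells. Among 12308 protein-coding genes 68 were called higher (0.552%) and 144 lower (1.17%), and all 212 (1.72%) had 3 sh4 values wholly above or below the 3 scramble values. The median absolute log2 fold change was 0.48 for the higher and 0.55 for the lower genes. On the log2(FPKM + 0.5) scale 6 (0.0487%) protein-coding genes were called at 2-fold or more higher and 8 (0.065%) at 2-fold or more lower. That scale understates the change of low genes, and by the ratio of mean FPKM 15 called genes (0.122%) rose and 40 (0.325%) fell by a factor of 2 or more, beside Gm10401, which was listed at 0 in scramble cells. Over genes of all types the calls at 2-fold or more moved from 12 higher and 12 lower to 23 and 35 with a pseudocount of 0.1. Non-overlapping groups alone were common, since 16.4% of all protein-coding genes had every sh4 value above and 17.9% below the scramble values. A further 11 protein-coding genes stood at least 2-fold apart without a call, and the groups of 9 of these overlapped.

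The number of calls depended strongly on the plates and on the scaling. Without scramble plate 1 there were 83 higher and 165 lower genes, with 158 of the 270 called again. Leaving out any other plate left 2 to 18 calls: 7 without scramble plate 2, 2 without scramble plate 3, 15 without sh4 plate 1, 18 without sh4 plate 2 and 15 without sh4 plate 3. Gpnmb and Il2rg were called in all 6 of these smaller fits, and Mt2, Epha4 and 3830417A13Rik in 5 of them. The list counts given below without scramble plate 1 thus come from the omission that kept the most calls. Scaling by median ratios gave 552 higher and 493 lower genes and so moved the share of higher calls from 40.7% to 52.8%, with all 270 genes called again. No called gene changed sign under any alternative in which it was tested.

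**Figure D2:**
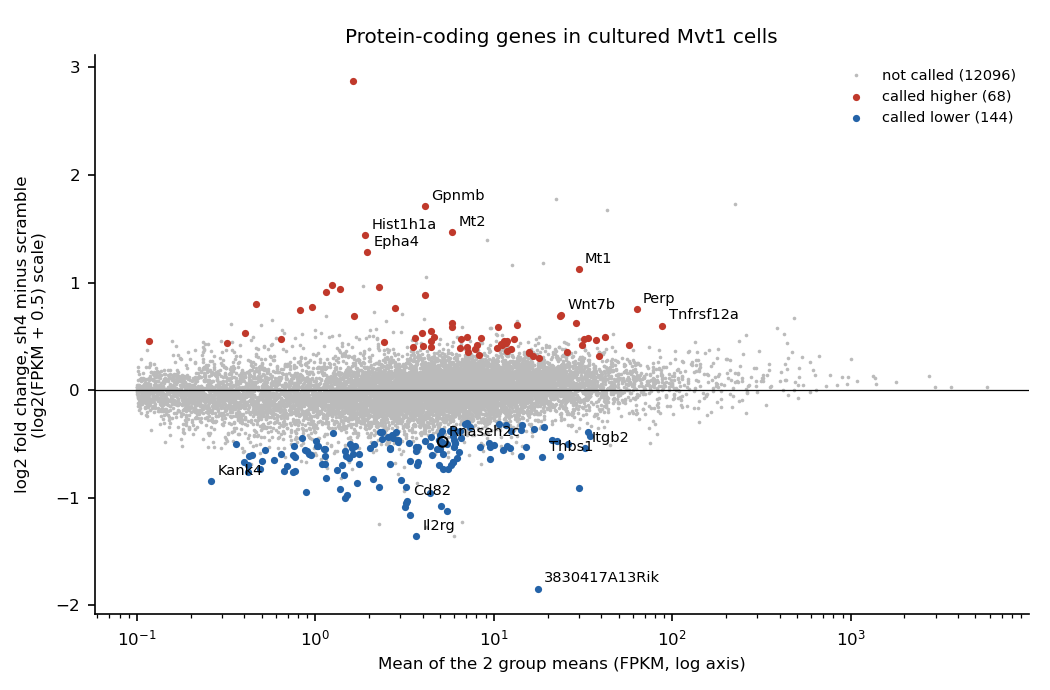
Log2 fold change of sh4 minus scramble cells on the log2(FPKM + 0.5) scale against mean FPKM on a log axis for 12308 protein-coding genes, with 68 called higher in red, 144 called lower in blue and the rest in grey. The highest called point is Gm10401, listed at 0 in scramble cells, followed by Gpnmb at 1.71 and Mt2 at 1.47, the lowest is 3830417A13Rik at -1.84, and the open circle marks Rnaseh2c, which was not called.

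Genes of zinc handling were among the largest rises. Mt2, a metallothionein that binds zinc and copper, was listed at 2.59, 3.14 and 2.92 FPKM in scramble and at 9.58, 8.38 and 8.58 FPKM in sh4 cells, 3.07 times as high (log2 fold change 1.47, SE 0.085, adjusted p 0.00582). Mt1, its neighbor on the chromosome, rose from 16.1, 20.6 and 19.3 FPKM to 42.3, 40.5 and 40.6 FPKM (1.12, SE 0.093, adjusted p 0.0134). Slc30a1, which exports zinc through the plasma membrane, rose from 0.555, 0.781 and 0.685 FPKM to 1.74, 1.81 and 1.88 FPKM (0.98, SE 0.092, adjusted p 0.0181). In each of these genes every sh4 plate was above every scramble plate by a wide gap. Slc39a10, which carries zinc into the cell, was 11.5, 13.5 and 13.1 FPKM in scramble and 9.66, 9.25 and 8.93 FPKM in sh4 cells and just missed the threshold (-0.43, adjusted p 0.0535). Mtf1, the zinc-sensing factor, stood at 3.22 to 3.27 FPKM against 2.76 to 2.90 FPKM and was not called (adjusted p 0.159), and was chosen after its values were seen. Of the 6 list members tested 3 were called higher and 0 lower, with a median log2 fold change of 0.55, beside 0.521% of all genes called higher and a median of -0.0022 over all genes. Without scramble plate 1, 3 were called higher and 1 lower. Over the 6 fits that each left out 1 plate, Mt2 was called in 5, Mt1 in 1 and Slc30a1 in 1.

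Gpnmb, a transmembrane glycoprotein of lysosomes and melanosomes, had the smallest adjusted p of the higher genes. It was listed at 1.56, 1.74 and 1.67 FPKM in scramble and at 6.64, 6.67 and 6.44 FPKM in sh4 cells, 3.97 times as high (1.71, SE 0.060, adjusted p 0.00117). The plates agreed closely within each group. Gpnmb was the only called member of the 31 lysosome and autophagy genes tested, beside 0.552% of all protein-coding genes called higher and 1.17% lower. Of the list 24 lay below 0, and the median was -0.15. Without scramble plate 1, 1 was called higher and 2 lower. The list is a selection, and lysosomal genes outside it were among those called lower. Gm10401, a gene model overlapping Sppl3, was listed at 0 in all scramble plates and at 3.50, 4.02 and 2.25 FPKM in sh4 cells. Reads from a gene and an overlapping gene cannot be told apart where strand was not used, and the handling of strand is not given in the sources used here.

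Several receptors and ligands were called higher. Epha4, a receptor for ephrins, was listed at 0.928, 0.913 and 0.935 FPKM in scramble and at 3.24, 2.83 and 2.87 FPKM in sh4 cells (1.29, SE 0.072, adjusted p 0.00582). Ddr2, a collagen-binding receptor kinase, rose from 0.829, 0.738 and 0.792 FPKM to 1.94, 2.03 and 1.94 FPKM (0.94, SE 0.067, adjusted p 0.00798). Both were low in scramble cells, and both had a gap between the groups much wider than the spread within them. Wnt7b, a secreted Wnt ligand, was well expressed at 16.2, 18.9 and 19.1 FPKM and reached 28.6, 30.7 and 29.2 FPKM (0.70, adjusted p 0.0239). Sfrp1, a secreted inhibitor of Wnt ligands, fell from 1.11, 1.00 and 0.830 FPKM to 0.420, 0.408 and 0.385 FPKM (-0.71, adjusted p 0.0362). These were the only 2 calls among 19 Wnt pathway genes tested, beside 0.552% of all protein-coding genes called higher and 1.17% lower. The median over the list was -0.031. Apln, which encodes the peptide ligand apelin, Robo3, an axon guidance receptor of the Slit pathway, Kitl, the ligand of the Kit receptor, and Cxadr, a junctional adhesion protein and virus receptor, were also called higher, with log2 fold changes of 0.89, 0.80, 0.38 and 0.69. Zfp704, a zinc finger protein, rose by 0.96, and Mcfd2, a cargo receptor subunit of the early secretory pathway, by 0.69.

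The interferon response did not move as one. Of 44 type I interferon-stimulated genes tested 2 were called higher and 3 lower, beside 0.521% and 0.758% of all genes, 26 were below and 18 above 0 on the log2 scale, and the median was -0.078. Without scramble plate 1, 1 was called higher and 2 lower. Ifit1, which binds viral RNA that lacks a host cap, was listed at 0.459, 0.738 and 0.757 FPKM in scramble and at 1.69, 1.57 and 1.68 FPKM in sh4 cells, 2.53 times as high (0.91, SE 0.12, adjusted p 0.0362). Rsad2, the antiviral enzyme viperin, rose from 0.458, 0.636 and 0.626 FPKM to 1.53, 1.24 and 1.22 FPKM (0.77, SE 0.11, adjusted p 0.0413). Both were expressed below 2 FPKM in every plate.

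The 3 members called lower were more abundant in scramble cells. Lgals3bp, a secreted galectin-binding protein, was listed at 24.1, 23.6 and 26.2 FPKM in scramble and at 17.4, 17.9 and 17.8 FPKM in sh4 cells (-0.47, SE 0.055, adjusted p 0.0311). Trim30a, a TRIM family protein that dampens inflammatory signaling, fell from 6.08, 6.83 and 6.61 FPKM to 4.52, 4.42 and 4.42 FPKM. Oasl2, a member of the oligoadenylate synthetase family, fell from 2.21, 1.83 and 2.17 FPKM to 1.09, 1.21 and 1.31 FPKM. Isg15, a ubiquitin-like modifier chosen after its values were seen, had 18.3, 23.8 and 19.6 FPKM against 17.7, 15.6 and 14.4 FPKM and was not called (adjusted p 0.19).

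Among 31 interferon gamma-induced genes tested 24 lay below and 7 above 0, with a median of -0.13. By limma 1 was called lower and 0 higher, beside 1.17% and 0.552% of all protein-coding genes. Gbp2, an interferon-induced GTPase that acts on intracellular pathogens, was that call, at 16.9, 18.0 and 18.9 FPKM in scramble and 12.3, 12.9 and 11.7 FPKM in sh4 cells (-0.52, SE 0.064, adjusted p 0.0311). Other large interferon-inducible GTPases fell with it: Gvin1 had a log2 fold change of -0.79, and 9930111J21Rik1 and 9930111J21Rik2 had -0.70 and -0.73. These last 3 belong to families of near-identical copies and the 9930111J21Rik genes overlap Olfr56, so the split of reads among them is uncertain. 9930111J21Rik1 was chosen after its values were seen.

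Sensors and adaptors upstream of interferon gave 2 calls, both lower. Of 23 genes of cytosolic DNA and RNA sensing tested 0 were called higher and 2 lower by limma, beside 0.552% and 1.17% of all protein-coding genes. In the list 8 were positive, and the median was -0.042. At an unadjusted p under 0.05 there were 2 on the positive and 5 on the negative side, where all genes had 9.55% and 9.33%. Without scramble plate 1 none was called in either direction. Tlr3, the endosomal sensor of double-stranded RNA, fell from 7.09, 6.36 and 6.52 FPKM to 5.01, 5.12 and 4.96 FPKM (-0.37, adjusted p 0.0494). Relb, a subunit of NF-kB, fell from 1.12, 1.10 and 1.27 FPKM to 0.665, 0.678 and 0.540 FPKM (-0.56, adjusted p 0.0485). Irf3, the factor that switches on interferon genes after sensing, was 28.4, 33.2 and 33.9 FPKM in scramble and 34.5, 34 and 34.4 FPKM in sh4 cells (0.11, adjusted p 0.479). Irf7, which amplifies the response, had 0.634 to 0.920 FPKM against 0.922 to 1.12 FPKM (0.22, adjusted p 0.341). These transcript levels do not report on the phosphorylation that activates either factor.

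Antigen presentation and cytokine genes gave no calls, and most had a negative sign. Of 23 antigen presentation genes tested 18 were negative, with a median of -0.13, and 9 had an unadjusted limma p under 0.05 and a negative sign, as 9.33% of all genes tested did. H2-D1, a class I heavy chain, had 156, 181 and 173 FPKM in scramble and 149, 152 and 132 FPKM in sh4 cells (-0.23, adjusted p 0.225). B2m, the shared light chain, ran from 217 to 257 FPKM and from 211 to 239 FPKM, with overlapping groups. Under quantile normalization 7 and under median-ratio scaling 2 of the 23 genes were called lower. Of 27 chemokine and cytokine genes 20 were negative, with a median of -0.13 and 0 called by limma, and at an unadjusted p under 0.05 there were 2 on the positive and 6 on the negative side, where all genes had 9.55% and 9.33%.

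Single genes of innate immunity made up a part of the lower set. Il2rg, the common gamma chain of several interleukin receptors, was listed at 5.45, 5.37 and 5.62 FPKM in scramble and at 1.76, 1.87 and 1.89 FPKM in sh4 cells, 2.98 times lower (-1.35, SE 0.057, adjusted p 0.00198). The gene model Gm20489 overlaps it and fell likewise by 0.97, so the reads of both may be the same. AW112010, an immune-induced transcript, fell from 7.18, 7.57 and 8.34 FPKM to 2.97, 3.87 and 3.04 FPKM (-1.12, adjusted p 0.0181). Slpi, a secreted inhibitor of leukocyte proteases, fell from 4.29, 5.53 and 4.79 FPKM to 2.54, 1.80 and 1.46 FPKM (-1.16, SE 0.17, adjusted p 0.0453). In all 4 genes the highest sh4 plate lay below the lowest scramble plate.

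Complement genes and intracellular sensors of bacteria were also in this set. Fcna, a ficolin that starts the lectin pathway, C1rl, a C1r-like protease, and C1ra, a protease of the first complement complex, fell by 0.75, 0.70 and 0.49. Nod1, which senses bacterial cell wall fragments, fell from 1.62, 1.59 and 1.56 FPKM to 0.604, 0.862 and 0.623 FPKM (-0.81, adjusted p 0.0311). Naip2 and Naip6, inflammasome sensors with near-identical copies, fell by 0.55 and 0.61, and all 6 genes of that receptor family tested were negative. The interleukin receptor chains Il1r1 and Il6st fell by 0.46 and 0.33, so that 3 of 20 interleukin receptor genes tested were called lower and 0 higher, beside 1.17% and 0.552% of all protein-coding genes. C1ra, C1rl, Naip2, Naip6, Il1r1, Il6st and these families were chosen after their values were seen. The share of interleukin receptor genes called is therefore no test against that of all genes.

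Several genes of this set are best known from leukocytes, so macrophage markers are given beside them. Of the 14 macrophage markers 4 could be tested, and all 4 were negative. By limma 0 were called, with 1 at an unadjusted p under 0.05. In 3 of the 4 every sh4 value lay below every scramble value, as in 17.9% of all protein-coding genes. The groups of Csf1r overlapped. Their summed level was 16.6 to 18.8 FPKM in scramble and 14.5 to 15.8 FPKM in sh4 cells, most of it Cd68, and 4 of the 14, Emr1 among them, were at 0 in every library. Aif1, which is 1 of the 4 tested and was picked after its values were seen, had 0.519, 0.514 and 0.767 FPKM against 0.354, 0.349 and 0.298 FPKM. The part of these markers in the falls of Il2rg and the other genes was not tested, and in a bulk library fewer cells of a type and less RNA per cell cannot be told apart. The 15 lymphocyte markers summed to 0.899 to 0.976 FPKM in scramble and 0.889 to 0.986 FPKM in sh4 cells.

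**Figure D3:**
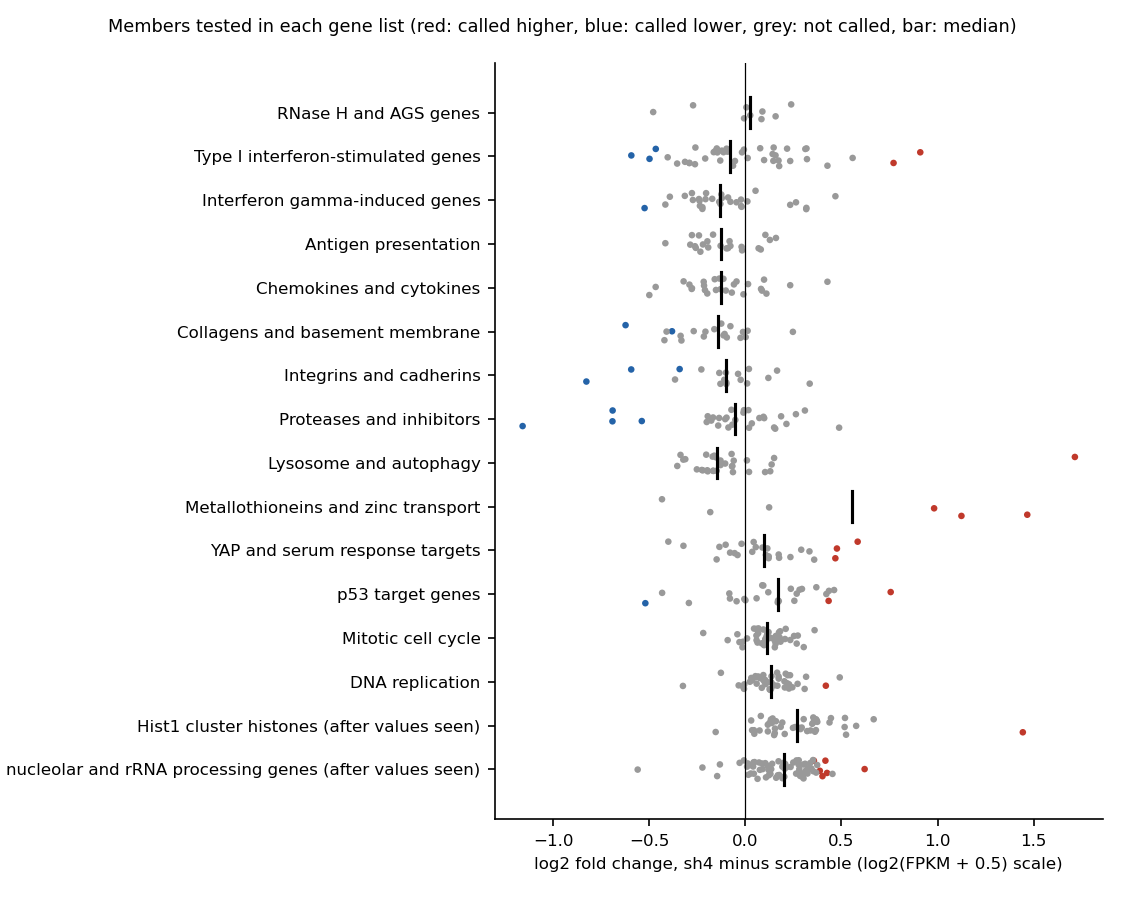
Log2 fold change of every tested member of 14 gene lists and 2 gene families (the families chosen after values were seen), with called members in red or blue, others in grey and a bar at each median. The interferon, antigen presentation and matrix lists have medians below 0, the growth-related lists above it, and the metallothionein list holds 3 of 6 members called higher.

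Of 31 proteases and inhibitors tested 0 were called higher and 4 lower, beside 0.552% and 1.17% of all protein-coding genes, 13 were positive and the median was -0.052. Serpine2, the protease nexin that inhibits thrombin and urokinase, was listed at 4.46, 4.83 and 4.89 FPKM in scramble and at 2.82, 2.73 and 2.67 FPKM in sh4 cells (-0.69, SE 0.061, adjusted p 0.0145). Adamts4, a protease that cleaves aggrecan, fell by 0.69. Tfpi, the inhibitor of tissue factor, fell by 0.60, and was chosen after its values were seen.

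Thbs1, thrombospondin, a matrix glycoprotein that restrains angiogenesis and activates latent TGF-beta, was listed at 22.8, 23.1 and 22.4 FPKM in scramble and at 14.5, 14.8 and 14.6 FPKM in sh4 cells (-0.62, SE 0.043, adjusted p 0.00798). Lamb2, a laminin chain of basement membrane, fell by 0.38. They were the 2 calls among 20 collagen and basement membrane genes tested, beside 1.17% of all protein-coding genes called lower. Of the 20 genes 17 were negative, with a median of -0.14, and without scramble plate 1 there was 1 call. Npnt, a basement membrane ligand of integrins chosen after its values were seen, fell by 0.68.

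On the cell surface, Cd82, a tetraspanin known as a metastasis suppressor, fell from 4.63, 4.71 and 4.37 FPKM to 2.09, 2.05 and 1.83 FPKM (-1.03, SE 0.068, adjusted p 0.00798). Alcam, an adhesion molecule of the immunoglobulin family, fell from 2.67, 2.75 and 3.10 FPKM to 1.48, 1.36 and 1.30 FPKM (-0.83, adjusted p 0.0181). Itgb3, the integrin beta 3 chain, fell from 5.98, 6.85 and 6.25 FPKM to 4.12, 4.07 and 3.93 FPKM (-0.59, adjusted p 0.0241), and Itgb7 by 0.34. Among 18 adhesion receptors of the list tested 0 were called higher and the median was -0.10. The 3 called lower were Alcam, Itgb3 and Itgb7, beside 1.17% of all protein-coding genes. Itgb2, the beta chain of leukocyte integrins, was the most abundant of them at 35.6, 40.4 and 39.4 FPKM in scramble and 27.9, 26.5 and 24.7 FPKM in sh4 cells (-0.54, adjusted p 0.0376). The heparan sulfate proteoglycans Sdc2 and Gpc1 fell by 0.73 and 0.43.

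Growth factor signaling showed a few called genes per pathway. Epgn, epigen, a ligand of the EGF receptor, was listed at 4.43, 4.59 and 4.6 FPKM in scramble and at 1.95, 2.12 and 1.76 FPKM in sh4 cells (-1.05, SE 0.073, adjusted p 0.00798). It was the only call among 20 EGF family genes tested, beside 1.17% of all protein-coding genes called lower, and the median over the family was 0.053. Id2, an inhibitor of basic helix-loop-helix factors induced by BMP, fell from 5.42, 6.09 and 6.27 FPKM to 2.98, 2.71 and 2.77 FPKM (-0.95, SE 0.074, adjusted p 0.0109). Smad3, which carries the TGF-beta signal to the nucleus, fell from 8.40, 8.09 and 8.32 FPKM to 6.47, 6.43 and 6.32 FPKM (-0.34, adjusted p 0.0394). Of 25 TGF-beta and BMP genes tested 0 were called higher and 3 lower, beside 0.552% and 1.17% of all protein-coding genes. The median was -0.065.

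Among immediate early genes and targets of YAP and serum all calls were upward. Ctgf, a matricellular protein, rose from 28.7, 31.3 and 33.8 FPKM to 44.2, 42.5 and 43.4 FPKM (0.47, SE 0.070, adjusted p 0.0453). Cyr61, of the same family, rose from 25.4, 26.4 and 28.2 FPKM to 35.1, 36.3 and 40.4 FPKM (0.48, adjusted p 0.0454). Jun, a subunit of the AP-1 factor, rose from 7.49, 8.70 and 9.05 FPKM to 12.5, 12.8 and 13.1 FPKM (0.58, adjusted p 0.0362). They were 3 of 26 list genes tested, beside 0.552% of all protein-coding genes called higher. In the list 0 were called lower, 17 were positive and the median was 0.098. Wisp2, the third member of the Ctgf and Cyr61 family seen here, fell by 0.84.

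The largest fall of a protein-coding gene on the log2(FPKM + 0.5) scale was that of 3830417A13Rik, a gene without a known role. It was listed at 24.2, 30.5 and 28.9 FPKM in scramble and at 7.82, 7.73 and 6.61 FPKM in sh4 cells, 3.77 times lower (-1.84, SE 0.11, adjusted p 0.00582). By the ratio of mean FPKM the called gene Kank4, an ankyrin repeat protein, fell further, 11.2-fold, from 0.423, 0.561 and 0.448 FPKM to 0.0348, 0.0359 and 0.0572 FPKM, so that every sh4 value lay below 0.1 FPKM. Tpd52l1, of the tumor protein D52 family, Grap, an adaptor of receptor tyrosine kinases, Gcnt1, an enzyme that branches O-glycans, and Trpv4, a calcium channel, fell by 1.09, 1.07, 0.92 and 0.76. Grap overlaps Slc5a10, and Ang5, an angiogenin with near-identical copies that fell by 0.91, may share reads with them.

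Growth and DNA replication genes were mostly positive in sign, with few calls. Of 46 replication genes tested 40 were positive, with a median of 0.13 and 1 call, Rrm2. Rrm2, a subunit of the ribonucleotide reductase that makes deoxynucleotides, was listed at 47.5, 50.9 and 49.0 FPKM in scramble and at 64.4, 66.2 and 67.1 FPKM in sh4 cells (0.42, SE 0.051, adjusted p 0.0311). Of 44 mitotic genes 38 were positive, with a median of 0.11 and 0 limma calls. At an unadjusted limma p under 0.05 there were 10 on the positive and 1 on the negative side, where all genes had 9.55% and 9.33%. Without scramble plate 1, 34 mitotic and 32 replication genes were positive, with medians of 0.071 and 0.098. Over all protein-coding genes tested 5967 of 12308 were positive and the median was -0.0065. Scaled to the sum of protein-coding genes, 35 mitotic and 34 replication genes were still positive, with medians of 0.054 and 0.077. Mki67, the proliferation antigen, ran from 70.2 to 80.4 FPKM in scramble and from 76.5 to 85.4 FPKM in sh4 cells and overlapped. Hells, a chromatin remodeler of replicating cells, and Nasp, a histone chaperone, rose by 0.40 and 0.46 and were chosen after their values were seen.

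Histone genes of the Hist1 cluster were positive in 43 of 44 genes tested, with a median of 0.27 and 1 call, and this family was chosen after its values were seen. The call was Hist1h1a, a linker histone, at 0.647, 0.518 and 1.30 FPKM in scramble and 3.09, 2.66 and 3.24 FPKM in sh4 cells (1.44, SE 0.22, adjusted p 0.0453). Quantile normalization reduced the positive count to 33 and the median to 0.11, and without scramble plate 1 these were 35 and 0.11, with 0 limma calls. Most of these messages lack a poly(A) tail, and the genes resemble each other closely.

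Ribosome assembly genes and small nucleolar RNAs were also mostly positive in sign. Srm, which encodes spermidine synthase and not a ribosome assembly factor, rose from 20.8, 24.8 and 22.3 FPKM to 36.5, 35 and 33.4 FPKM (0.62, SE 0.076, adjusted p 0.0311). Ddx21 rose from 26.0, 28.6 and 25.5 FPKM to 37.1, 34.2 and 36.0 FPKM (0.42, adjusted p 0.0468). C1qbp, Mphosph10, Rrp1b and Ccdc86, which act in mitochondria or in nucleolar rRNA processing, rose by 0.36, 0.42, 0.39 and 0.40, and were chosen after their values were seen. A family of 70 genes, mostly nucleolar or of rRNA processing, was chosen after values were seen, and Srm was counted in it. Of the 70 genes 64 were positive, with a median of 0.20. Srm was among the 6 called higher, beside 0.552% of all protein-coding genes, and 0 were called lower. The family was chosen with the calls known, so setting its share beside that of all genes is not a test. Scaled to the sum of protein-coding genes 55 were positive. Without scramble plate 1, 58 were positive and 2 called higher. Of 425 small nucleolar RNA genes tested 15 were called higher and 1 lower, beside 0.477% and 0.182% of all noncoding and unmatched genes, and 293 were positive. Of the 15 genes called higher 10 lie inside or overlap another gene, whose reads cannot be told apart from theirs. Snord13, a guide of rRNA acetylation, was listed at 5.28, 5.36 and 5.65 FPKM in scramble and at 11.2, 12.6 and 10.8 FPKM in sh4 cells (1.02, adjusted p 0.00798). It was chosen after its values were seen.

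Targets of p53 and death receptor genes split. Cdkn1a, the cell cycle inhibitor p21, was listed at 8.55, 8.72 and 7.53 FPKM in scramble and at 11.1, 10.4 and 10.9 FPKM in sh4 cells. The groups did not overlap and the gene missed the threshold (0.37, SE 0.069, adjusted p 0.0673). Perp, a desmosomal membrane protein induced by p53, rose from 43.0, 47.8 and 49.8 FPKM to 80.7, 81.6 and 76.0 FPKM (0.76, SE 0.071, adjusted p 0.0181). Eda2r, a death domain receptor, rose by 0.43 and Fas, the prototype death receptor, fell by 0.52. Of 26 p53 targets tested 19 were positive, with a median of 0.17. By limma 2 were called higher and 1 lower, beside 0.552% and 1.17% of all protein-coding genes. Tnfrsf12a, the receptor of the cytokine TWEAK, rose from 61.8, 72.5 and 75.5 FPKM to 112, 105 and 100.5 FPKM, and Bmf, a cell death activator of the BCL2 family, fell by 0.86. Of 42 DNA damage and repair genes 0 were called by limma, and the median was 0.058. At an unadjusted limma p under 0.05 there were 7 on the positive and 0 on the negative side, where all genes had 9.55% and 9.33%.

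Metabolic genes gave scattered calls. Aldoc and Eno2, the less common isoforms of the glycolytic enzymes aldolase and enolase, fell by 0.54 and 0.55, and Slc16a3, a lactate exporter, fell by 0.68. They were the 3 calls among 33 hypoxia and glycolysis genes tested, beside 1.17% of all protein-coding genes called lower. Of the 33 genes 21 were negative, with a median of -0.051. Slc16a3 overlaps Csnk1d. Lipg, endothelial lipase, rose by 0.55.

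The 5 other genes of the chromosomal region studied with Rnaseh2c were not called. Frmd8 differed by -0.00088 on the log2 scale, Mus81 by 0.17, Pola2 by 0.076, Dpp3 by -0.21 and Sipa1 by -0.13, and the adjusted p-values ran from 0.255 to 0.997.

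The tumors grown from the same 2 lines allowed the called genes to be set beside a table that shares no library with the cells, although its unit is RPKM from mRNA, its pipeline differed and the tumors hold host cells. Values are given side by side on the log2(RPKM + 0.5) scale without a test. The tumor labels give an experiment number, shared by a scramble and an sh4 tumor each, and this pairing was not used. Genes were compared if their symbol was held by 1 gene and their tumor mean was at least 0.1 RPKM. Of the 68 genes called higher in cells 63 could be compared, and 38 of them (60.3%) were also higher on average in sh4 tumors. The share was 41.4% over the 5102 compared protein-coding genes that were positive in cells. Of the 144 called lower 129 could be compared and 94 (72.9%) were lower in sh4 tumors. The share was 65.3% over the 5445 compared protein-coding genes that were negative in cells. Among the 129 genes 16 had every sh4 tumor below every scramble tumor, 12.4% against 6.89% of compared genes negative in cells. In 1 gene every sh4 tumor was above. Among the 63 genes 4 (6.35%) had every sh4 tumor above and 3 (4.76%) every sh4 tumor below. These shares were 2.84% and 4.31% of compared genes positive in cells.

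Epgn was among these 16, at 5.97, 5.22 and 5.54 RPKM in scramble tumors and 4.11, 1.96 and 1.56 RPKM in sh4 tumors. Fcna, Slc16a3, Aldoc and Tpd52l1 were others, with tumor log2 differences of -1.35, -0.67, -0.78 and -0.93. The metallothioneins showed no such difference. Mt2 was listed at 334, 736 and 287 RPKM in scramble tumors and at 466, 601 and 271 RPKM in sh4 tumors, a log2 difference of 0.033 with overlapping groups. Il2rg ran from 42.1 to 71.0 RPKM and from 36.9 to 75.7 RPKM, and Gpnmb had a difference of 0.36 with overlapping groups. Tnfrsf12a, called higher in cells, was lower in all sh4 tumors, at 43.2, 54.5 and 42.3 RPKM against 29.7, 34.7 and 35.1 RPKM.

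**Figure D4:**
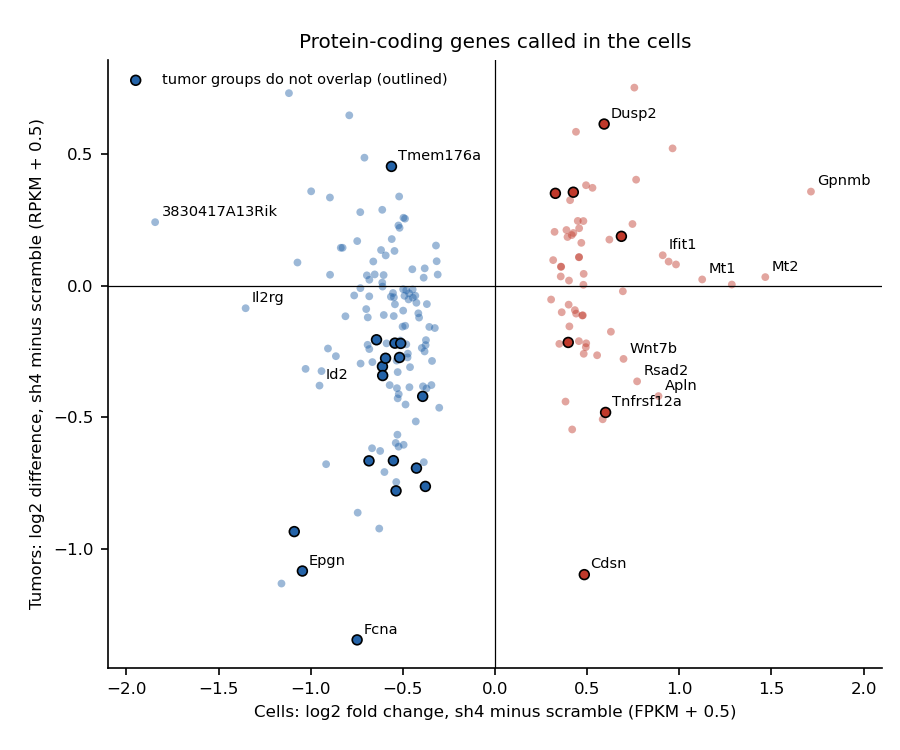
Log2 difference of sh4 minus scramble tumors on the RPKM + 0.5 scale against the log2 fold change in cells on the FPKM + 0.5 scale for 192 protein-coding genes called in the cells, red for higher and blue for lower, with an outline where the tumor groups do not overlap. Epgn and Fcna are low in both, while Mt1 and Mt2 lie near 0 on the tumor axis.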

How the data were processed

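Total RNA of 6 cultured cell libraries was analysed. The authors deposited FPKM per gene, and how these were counted, the strand setting and the build of this table are not given in the sources used here. The submitters' processing notes list STAR 2.7 and TopHat2 2.1.0 without roles, and the methods name DESeq2 for the noncoding RNA comparison, which needs counts and was not run on FPKM. Tumor values were deposited by the authors as RPKM.

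Rows with Ensembl identifiers (50667) were kept, and 32709 of them matched GENCODE vM1 for symbol and type, so some current genes have no symbol. Genes with a mean of at least 0.1 FPKM were tested by limma 3.58.1 in R 4.3.3 on log2(FPKM + 0.5) with a trended prior and Benjamini-Hochberg adjustment over 21106 genes. A pseudocount understates the change of low genes. On simulated data with 200 changed genes among 21106 for this comparison, 47% of those changed by 0.5 and 83% of those changed by 1 (log2) were called. The same run gave 13 false calls among the unchanged genes. Values were drawn independently for each gene, without any shift shared by a whole library. These rates therefore need not hold for the real libraries, where calls depended on single plates.

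Named genes were those named by the study, the called protein-coding genes with the largest folds (30 per direction), smallest p (15) and highest mean (10), the 5 called noncoding genes per direction with the largest fold, and per list up to 4 called and 3 abundant members, and others are said to be chosen after their values were seen. The members and the 42 lists were chosen with earlier results of these data known. Of 212 called protein-coding genes 54 overlap another annotated gene. A few called genes are not reported here. Housekeeping genes were checked, and 0 of 12 were at 0 in any library. Alternatives tried were pseudocounts, filters, scalings, the plate block and leaving out each plate.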

Additional observations from a re-analysis of the deposited data

How the results depend on the processing

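The count of calls varied with the processing far more than the direction of single genes. Without the filter on low values 32 genes were called higher and 45 lower (protein-coding 21 and 41), and with a mean of at least 1 FPKM 174 higher (protein-coding 112). Quantile normalization gave 545 higher and 678 lower (protein-coding 391 and 603) and median-ratio scaling 552 and 493 (403 and 425). Protein-coding genes fitted alone gave 397 and 644. Without the trend 53 were higher and 118 lower (protein-coding 30 and 105). Of 2 alternatives chosen after seeing the data, scaling to the protein-coding sum gave 504 and 910 (371 and 798), and a pseudocount of 0.1 with median-ratio scaling gave 557 and 494 (407 and 427). Calls of at least 2-fold numbered 23 higher and 35 lower with a pseudocount of 0.1, and 38 and 58 with that pseudocount and median-ratio scaling. With a pseudocount of 1 they numbered 10 higher and 6 lower. Leaving out 1 plate in turn gave 1 to 83 higher and 1 to 165 lower genes, 1 to 47 and 1 to 140 among protein-coding genes, and 1 to 17 and 1 to 14 at 2-fold or more. These smaller fits have fewer samples, and 26 of 92 called genes named in the text were called in 0 of the 6. Rnaseh2c stayed negative and uncalled throughout, from -0.64 to -0.31 when a plate was left out. Of genes named in the text, these turned sign, none of them called: Rnaseh1 was -0.032 when scaled to the protein-coding sum and -0.030 to 0.067 without a plate, Vim was -0.10 under quantile normalization and -0.084 to 0.27 without a plate, and Frmd8 ran from -0.065 to 0.069 without a plate.

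The plate number as a replicate block left 0 genes called higher and 0 lower (protein-coding 0 and 0, at 2-fold 0 and 0) by limma, with 2813 at an unadjusted p under 0.05. Libraries that share a plate number did not deviate together, with correlations of -0.061, -0.075 and -0.073 of their deviations from the group means, so the numbers were not used as pairs. No library correlated best with its own number. The planned fit with the assembled loci was not run, because their names do not mark the same locus in each library: log2 values correlated at -0.0018 to 0.0174 between libraries, against 0.982 to 0.989 for Ensembl genes. Depth is unknown, so calls for low genes cannot be set against counting error.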

Other observations

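Of 8798 noncoding and unmatched genes tested 42 were called higher (0.477%) and 16 lower (0.182%). Gm15441, a long noncoding RNA that overlaps Txnip, an arrestin-like inhibitor of thioredoxin, was listed at 6.80, 10.9 and 8.13 FPKM in scramble and at 3.55, 2.77 and 2.97 FPKM in sh4 cells (log2 fold change -1.32, limma adjusted p 0.0356). Mir1931, inside Cdk17, was at 1.10 to 1.40 FPKM in scramble and at 0 to 0.190 FPKM in sh4 cells, and FPKM of so short a gene in a total RNA library need not report the mature microRNA. Of 287 long intergenic noncoding RNA genes tested 1 was called higher and 1 lower, and 190 were negative.

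Abundant genes of the secretory route were called in both directions. Ssr2, a subunit of the translocon-associated complex of the endoplasmic reticulum, had 25.3, 30.3 and 29.7 FPKM in scramble and 18.7, 18.9 and 17.7 FPKM in sh4 cells (-0.61, adjusted p 0.0356). Sft2d2, a vesicle transport protein, fell from 29.2, 31.7 and 30.8 FPKM to 21.3, 21.6 and 21.6 FPKM (-0.50, adjusted p 0.0207). Rabif, a factor that stabilizes Rab GTPases, fell by 0.39, and overlaps a small nucleolar RNA gene. Tmed10, a cargo receptor between endoplasmic reticulum and Golgi, rose from 21.3, 23.6 and 22.5 FPKM to 28.8, 29.1 and 28.9 FPKM (0.36, adjusted p 0.0453), and was chosen after its values were seen. Podxl, a sialomucin of the cell surface, was among the abundant higher genes, with 33.2, 35.5 and 35 FPKM in scramble and 44, 42.8 and 42.5 FPKM in sh4 cells (0.32, adjusted p 0.0486).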
